A study of Homo sapiens with 6 samples.

Results

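The genes described here are 57 genes of cell division, chosen by their symbols. They encode the kinases and cyclins that start mitosis, the spindle checkpoint, the chromosomal passenger complex, the centromere and kinetochore, motor and other proteins of the spindle, and the machinery of cytokinesis. All 57 were found among the 25349 genes of the count table, and 56 were among the 14661 genes that passed the filter on low counts and were tested. RNA sequencing was performed in SCC-9 cells, an established human line that derives from a squamous carcinoma of the tongue, which were grown with hydrocortisone in the medium in both groups. The siE7 cells, titled siKi by the submitters, received 10 nM of siRNA directed to exon 7 of MKI67, the gene of the proliferation marker Ki67, and the siNC cells, titled NS, received 10 nM of a nonspecific siRNA. Cells were transfected by lipofection on day 0 and, after passage, once more on day 2, and harvested for RNA on day 4. Each group had 3 libraries of polyadenylated RNA. Of the 3 exon 7 siRNAs in the methods, the one in these libraries is not named, so loss of Ki67 and other effects of that siRNA sequence cannot be told apart. No source states that the libraries of a group came from separate cultures, and the p-values therefore measure the spread between these samples, which may be technical.

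Cells enter mitosis when CDK1 bound to cyclin B is activated. Chromosomes then attach through kinetochores, which are built on centromeres marked by the histone variant CENPA, to spindle microtubules that kinesin motors slide and crosslink. The spindle checkpoint holds back the anaphase-promoting complex (APC/C) and its activator CDC20 until attachment is complete, after which the sister chromatids separate and the cell divides. Most of these genes are transcribed late in the cell cycle. The MuvB complex with B-MYB or FOXM1 acts on many of their promoters through the CHR element, and the factor NF-Y binds CCAAT boxes beside it.

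The promoters of 6 members are shown as examples that differ in these elements. Of their genes, CCNB2 alone did not pass the main test given below. CCNB2 (cyclin B2) and PLK1 (a kinase of mitotic entry) hold the arrangement usual for such genes, CKAP2L and KIF20B hold 2 CHR elements and 2 CCAAT boxes each, CENPE holds neither, and NEK2 holds 2 CCAAT boxes and no CHR element. The windows run from 250 bases before to 50 bases after the annotated gene start, 5′ to 3′ on the strand of the gene, from RefSeq on GRCh38.p14. They lie at chr15:59104896-59105195 on the plus strand for CCNB2, chr16:23678639-23678938 (plus) for PLK1, chr2:112764560-112764859 (minus) for CKAP2L, chr10:89701340-89701639 (plus) for KIF20B, chr4:103198294-103198593 (minus) for CENPE and chr1:211675572-211675871 (minus) for NEK2. Capitals mark CHR elements (TTTGAA or TTCGAA) and CCAAT boxes on either strand, so that TTCAAA and ATTGG are the same motifs read from the other strand.
CCNB2: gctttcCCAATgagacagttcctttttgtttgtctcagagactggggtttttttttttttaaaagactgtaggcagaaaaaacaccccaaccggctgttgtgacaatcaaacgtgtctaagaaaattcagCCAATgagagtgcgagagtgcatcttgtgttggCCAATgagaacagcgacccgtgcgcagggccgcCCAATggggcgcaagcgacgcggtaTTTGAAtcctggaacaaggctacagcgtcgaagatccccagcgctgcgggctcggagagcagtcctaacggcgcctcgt
PLK1: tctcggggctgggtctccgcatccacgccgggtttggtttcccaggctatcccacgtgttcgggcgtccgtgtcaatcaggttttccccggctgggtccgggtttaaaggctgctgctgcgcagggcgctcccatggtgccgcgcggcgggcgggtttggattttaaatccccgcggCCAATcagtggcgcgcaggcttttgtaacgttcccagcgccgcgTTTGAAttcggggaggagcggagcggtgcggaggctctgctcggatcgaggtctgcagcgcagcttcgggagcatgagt
CKAP2L: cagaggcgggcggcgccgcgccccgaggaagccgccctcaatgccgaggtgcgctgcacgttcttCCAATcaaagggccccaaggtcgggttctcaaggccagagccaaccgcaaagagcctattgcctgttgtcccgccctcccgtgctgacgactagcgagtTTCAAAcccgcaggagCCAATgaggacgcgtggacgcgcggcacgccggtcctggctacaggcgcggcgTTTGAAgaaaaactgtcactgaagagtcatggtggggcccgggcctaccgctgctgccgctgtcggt
KIF20B: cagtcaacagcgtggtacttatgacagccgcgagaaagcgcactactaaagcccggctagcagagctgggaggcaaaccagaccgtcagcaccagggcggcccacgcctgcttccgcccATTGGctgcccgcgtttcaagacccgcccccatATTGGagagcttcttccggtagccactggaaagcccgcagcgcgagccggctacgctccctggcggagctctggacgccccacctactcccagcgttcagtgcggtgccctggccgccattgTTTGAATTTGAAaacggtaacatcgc
CENPE: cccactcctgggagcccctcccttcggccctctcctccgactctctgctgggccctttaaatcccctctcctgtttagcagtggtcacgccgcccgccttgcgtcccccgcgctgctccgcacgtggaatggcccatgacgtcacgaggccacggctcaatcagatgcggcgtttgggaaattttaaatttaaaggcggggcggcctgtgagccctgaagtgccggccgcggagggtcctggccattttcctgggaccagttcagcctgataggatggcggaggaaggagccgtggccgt
NEK2: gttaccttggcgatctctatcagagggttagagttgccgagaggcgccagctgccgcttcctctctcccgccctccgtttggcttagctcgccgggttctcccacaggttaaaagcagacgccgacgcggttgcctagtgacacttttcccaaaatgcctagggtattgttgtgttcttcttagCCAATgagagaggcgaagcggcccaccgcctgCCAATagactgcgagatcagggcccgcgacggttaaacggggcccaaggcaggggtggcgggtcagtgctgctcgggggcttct

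MKI67, the target of the siRNA, measured 1072, 1029 and 1077 CPM with siNC and 112, 124 and 108 CPM with siE7, and its RNA fell in all 3 siE7 libraries (log2 fold change -3.21 ± 0.11, edgeR adjusted p = 6.71e-08). CPM are counts scaled to library size with TMM factors, a log2 fold change is siE7 minus siNC with its standard error (SE), and the adjusted p is that of edgeR's quasi-likelihood test after Benjamini-Hochberg adjustment over the 14661 genes. Total counts were 25608192 to 29550264 per library. The squamous and epithelial markers KRT5, KRT14, KRT6A, KRT17, TP63, CDH1, DSP and EPCAM were all tested. They summed to 18260 to 19040 CPM with siNC and 18200 to 23700 CPM with siE7. At an edgeR adjusted p under 0.05, 5 of the 8 fell and 1 rose, against 16.0% and 18.0% of all tested genes. Markers of fibroblasts summed to 16.5 to 19.6 CPM with siNC and 18.2 to 24.2 CPM with siE7, nearly all of it COL1A1, those of leukocytes to 2.19 to 3.52 and 1.38 to 3.07 CPM, and those of endothelium to at most 0.492 CPM in any library. The 2 fibroblast markers and the 1 leukocyte marker tested passed the edgeR test at neither an adjusted nor an unadjusted p under 0.05.

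The siE7 replicate 1 library stood apart. The counts of siE7 replicate 1 differed from those of siE7 replicates 2 and 3 by a chi-square of 61.1 and 72.7 per degree of freedom, against 6.22 between replicates 2 and 3 and 5.54 to 6.17 among the siNC libraries. It was the lowest of the 3 siE7 libraries for 39 of the 56 members and the highest for 16, and where it stood followed the GC content of the transcript. Counts of members are therefore given with and without it, and so are the values of each member that gained a call in its absence.

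RNA of the mitotic genes was lower with siE7. Of the 56 members tested, 29 fell (51.8%) and 1 rose, NEK2, at an edgeR adjusted p under 0.05. Over all tested genes 16.0% fell and 18.0% rose, and these shares are the background of each count by role below. With a log2 fold change beyond 1 as a further condition, the threshold for a differentially expressed gene (DEG), 7 members were lower DEGs, BIRC5, CENPE, CKAP2L, ASPM, KIF20B, SGO2 and FOXM1, against 4.84% of all genes. The nearest to the limit were FOXM1 at -1.04 within it and KIF23 at -0.97 outside it. None was a higher DEG by edgeR or DESeq2, against 7.38% of all genes by edgeR, and at an unadjusted p under 0.05 NEK2 alone was higher. In bulk RNA, fewer cells in G2 and mitosis and less RNA of these genes per cell cannot be told apart.

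The log2 fold changes ran from -1.47 for BIRC5 to 0.61 for NEK2, with 50 members below 0 and a median of -0.45, where the median of all tested genes was 0.08. All siE7 libraries were below all siNC libraries for 38 members (67.9%), which included the 29 that fell, against 22.7% of all genes. All were above for 1 member, NEK2, against 24.9% of all genes, and the groups overlapped for 17. In these 39 members without overlap the exact two-sided permutation test gave the smallest p that 3 against 3 libraries allow, 0.1, so for a single gene it cannot pass 0.05. Summed over the members, the level was 5472, 5550 and 5504 CPM with siNC and 4385, 4124 and 3990 CPM with siE7, or 0.515% to 0.522% and 0.438% to 0.445% of the counts of a library.

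**Figure D1:**
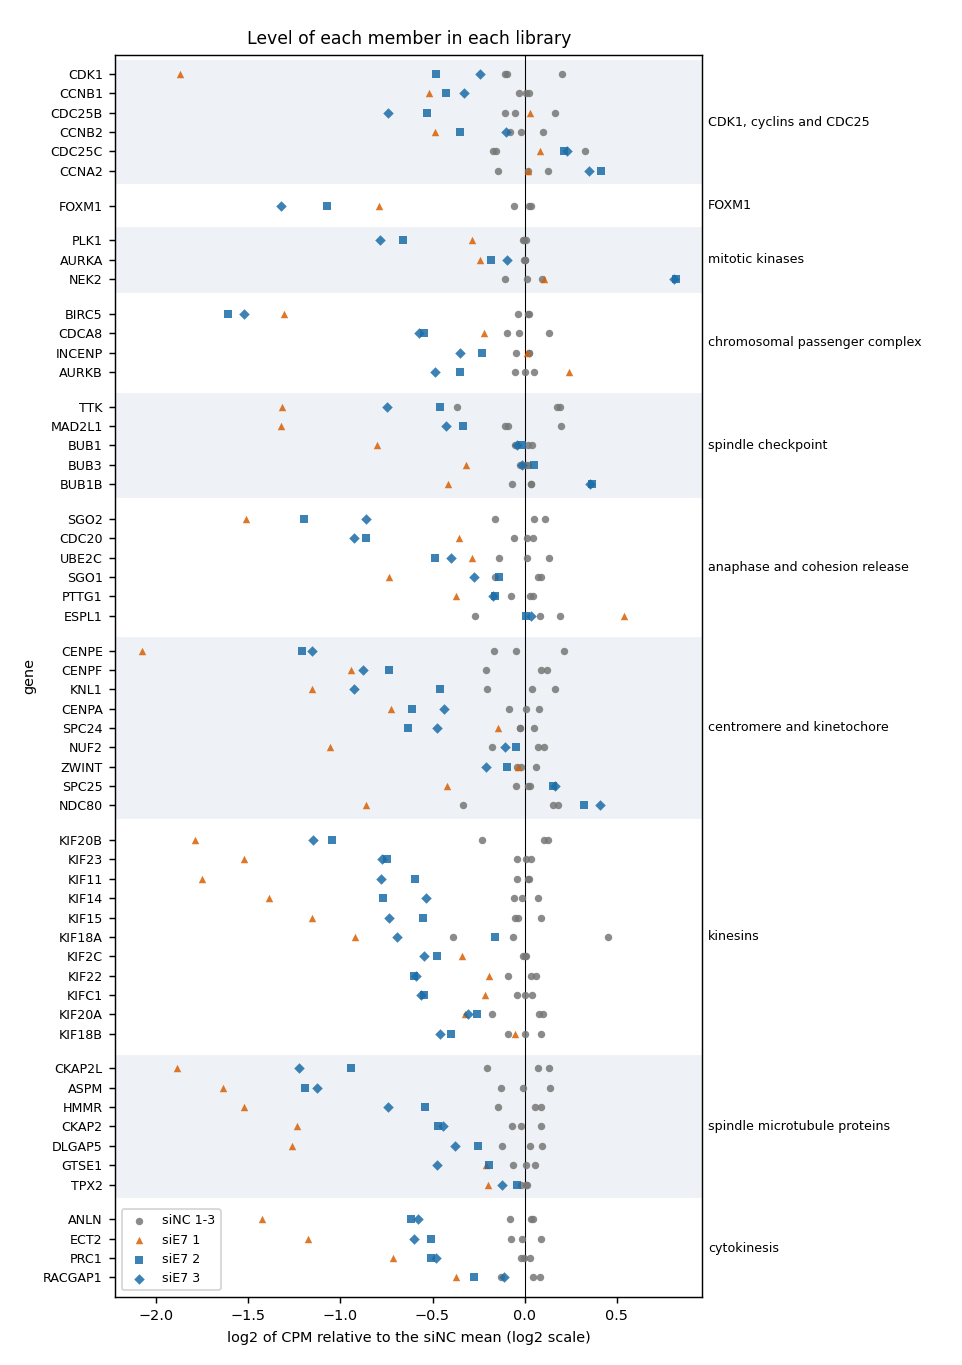
Level of each tested member in each library, as its log2 CPM minus the mean log2 CPM of the siNC libraries (horizontal axis). Members are grouped by role and sorted by fold change. Grey circles are the 3 siNC libraries, the orange triangle is siE7 replicate 1 and the blue square and diamond are siE7 replicates 2 and 3. Most siE7 points lie left of the siNC points, NEK2 lies to the right, and siE7 replicate 1 is the farthest left for members such as CDK1, CENPE and KIF11.

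**Figure D2:**
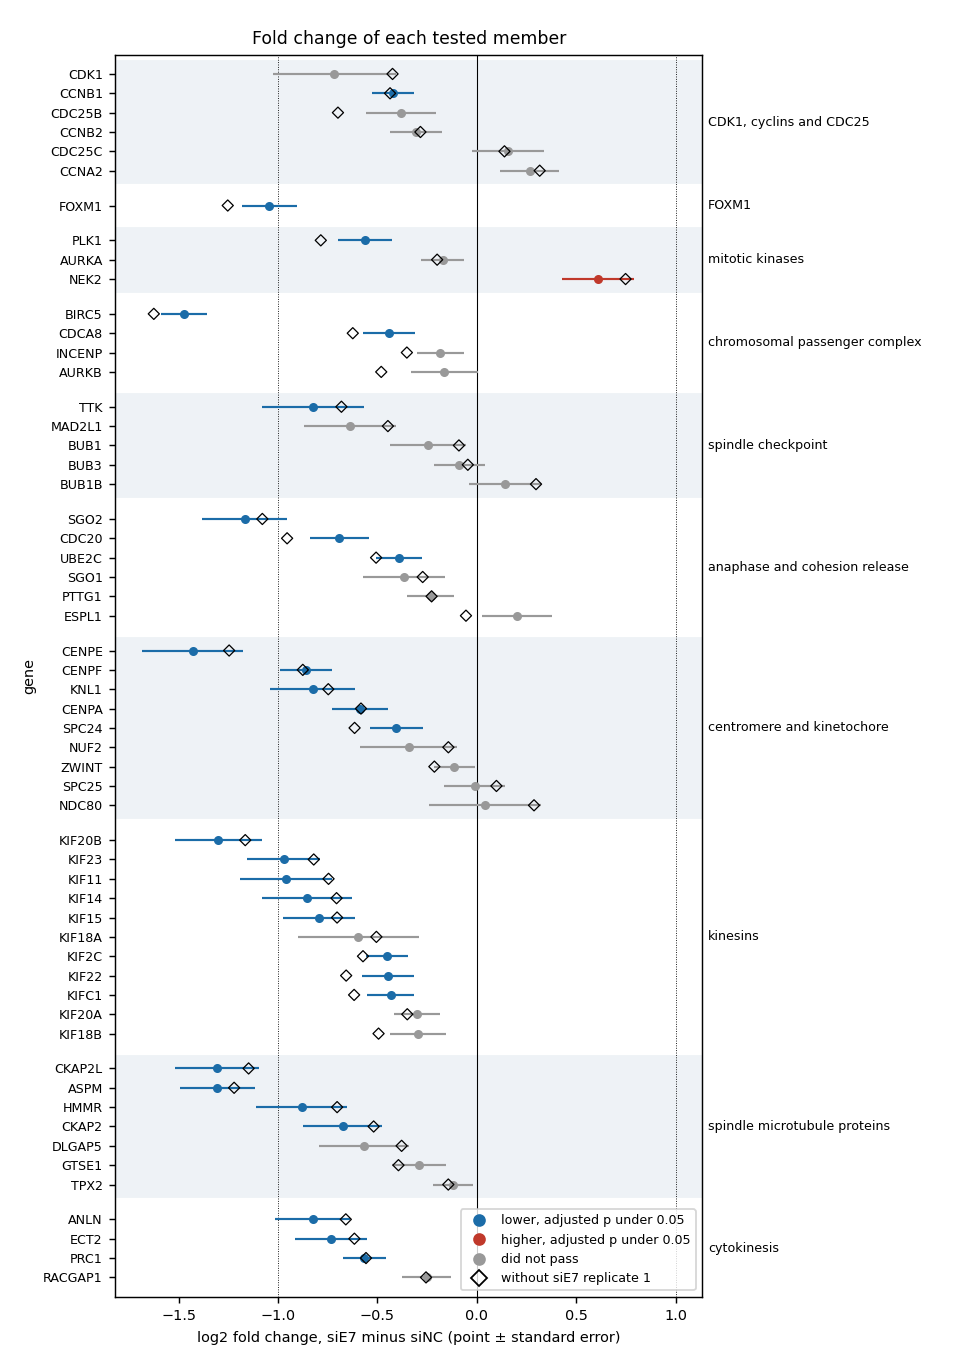
Log2 fold change of each tested member (siE7 minus siNC, circle, with its standard error as a bar), grouped by role. Blue circles passed the edgeR test as lower, the red circle as higher, and grey circles did not pass. Open diamonds give the value without siE7 replicate 1, and dotted lines mark -1 and 1. The 29 blue genes run from -1.47 (BIRC5) to -0.39 (UBE2C).

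Among the drivers of mitotic entry, 1 of 6 fell (16.7%), cyclin B1, near the 16.0% of all tested genes. Without siE7 replicate 1, 4 of the 6 were lower and 1 higher, against 29.5% and 28.9% of all genes. CCNB1, the partner of CDK1 at entry, measured 146, 148 and 143 CPM with siNC and 102, 109 and 116 CPM with siE7 (log2 fold change -0.42 ± 0.11, edgeR adjusted p = 0.00999). Its siE7 values were all below its siNC values. Without siNC replicate 1 or 2 the edgeR adjusted p of CCNB1 was 0.0525 and 0.0569 at fold changes of -0.42 and -0.42. CCNB2, whose promoter is shown above, measured 48.5, 52.8 and 46.6 CPM with siNC and 35.2, 38.6 and 45.9 CPM with siE7 and did not pass (log2 fold change -0.31 ± 0.13, edgeR adjusted p = 0.0918), although the groups did not overlap. CCNB2 was past the threshold by DESeq2 (adjusted p = 0.0446), when fold changes were taken after removal of GC trends (edgeR adjusted p = 0.00172), and without siE7 replicate 1 (-0.28, edgeR adjusted p = 0.00257) or siE7 replicate 3 (0.045). CDK1 itself stood at 25.6, 31.8 and 25.8 CPM with siNC and 7.56, 19.8 and 23.3 CPM with siE7 (log2 fold change -0.72 ± 0.31, edgeR adjusted p = 0.0939), and the siE7 replicate 1 value was far below the other siE7 values. Without that library CDK1 passed at -0.42, edgeR adjusted p = 5.86e-04. The phosphatase gene CDC25B (-0.38) was -0.70, edgeR adjusted p = 2.90e-08 without it, CDC25C was at 0.16, and CCNA2, cyclin A2, was at 0.27 with every library and passed as higher without siE7 replicate 1 (0.32, edgeR adjusted p = 0.00347).

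FOXM1, the forkhead factor that activates late cell cycle genes (ENSG00000111206.13, chr12:2857680-2877174), measured 128, 119.6 and 127 CPM with siNC and 72.0, 59.3 and 49.8 CPM with siE7. Each siE7 value was under every siNC value, and the mean went from 124.6 ± 4.32 to 60.4 ± 11.2 CPM (SD, n = 3). FOXM1 fell (log2 fold change -1.04 ± 0.14, edgeR adjusted p = 2.35e-04) and remained past the threshold of significance under all 15 alternative settings, with fold changes of -1.25 to -0.88. It overlaps ITFG2 and RHNO1 on the other strand, and reads of overlapping genes are split only if the strand was used in counting, which is not given.

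The mitotic kinases went in both directions. PLK1 measured 195, 196 and 194 CPM with siNC and 160.3, 123 and 113 CPM with siE7 and fell (log2 fold change -0.56 ± 0.13, edgeR adjusted p = 0.00790), with no overlap of the groups. AURKA, the kinase of the spindle poles, was at 62.7, 62.6 and 62.7 CPM with siNC and 53.0, 55.1 and 58.7 CPM with siE7 and did not pass (log2 fold change -0.17 ± 0.11, edgeR adjusted p = 0.238), but passed without siE7 replicate 1 (-0.20, edgeR adjusted p = 0.0101). NEK2, a kinase of centrosome separation (ENSG00000117650.13, chr1:211658657-211675630), measured 23.7, 25.7 and 27.3 CPM with siNC and 27.5, 45.0 and 44.6 CPM with siE7. Its siE7 replicate 1 value was only just above the highest siNC value, and the other siE7 values were well above it. NEK2 rose (log2 fold change 0.61 ± 0.18, edgeR adjusted p = 0.0228). The call was lost without siE7 replicate 2 (edgeR adjusted p = 0.0867), siE7 replicate 3 (0.0741), siNC replicate 1 (0.098), siNC replicate 2 (0.0799) or siNC replicate 3 (0.0626), at fold changes of 0.50 to 0.65, and without siE7 replicate 1 it was 0.75, edgeR adjusted p = 4.10e-10.

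With all 6 libraries in the main fit, BIRC5 had the largest fall of all members, narrowly ahead of CENPE (-1.43). This order was not firm. CENPE lay below BIRC5 with the GC trend removed, without or with the replicate block (-1.52 against -1.50 without it). The same held without siE7 replicate 2, siE7 replicate 3 (-1.59 against -1.45) or siNC replicate 3, and BIRC5 was the lower under the other alternatives. BIRC5, or survivin (ENSG00000089685.15, chr17:78214186-78225636), is the subunit that brings the chromosomal passenger complex to the centromere and is also known as an inhibitor of apoptosis. It measured 288, 277 and 289 CPM with siNC and 115, 93.3 and 98.9 CPM with siE7, or 284 ± 6.67 and 102.5 ± 11.4 CPM (SD, n = 3). The groups were far apart, and the siE7 libraries lay close together. Its fold change (log2 fold change -1.47 ± 0.12, edgeR adjusted p = 7.43e-06) stayed between -1.63 and -1.31 under the 15 alternatives and was -1.63 without siE7 replicate 1. CDCA8, borealin, measured 65.6, 68.5 and 76.7 CPM with siNC and 60.1, 48.1 and 47.1 CPM with siE7 and also fell (log2 fold change -0.44 ± 0.13, edgeR adjusted p = 0.0223), but leaving out any library other than siE7 replicate 1 lost the call, with edgeR adjusted p-values of 0.053 to 0.12. The scaffold INCENP was at 623, 652 and 654 CPM with siNC and 648, 546 and 505 CPM with siE7 (log2 fold change -0.18 ± 0.12, edgeR adjusted p = 0.247) and the kinase AURKB at 131, 141 and 136 CPM with siNC and 161, 107 and 97.0 CPM with siE7 (log2 fold change -0.16 ± 0.17, edgeR adjusted p = 0.480). For both the siE7 replicate 1 value lay near or above the siNC values and the other siE7 values lay below them. Without siE7 replicate 1 both passed as lower (INCENP -0.35, edgeR adjusted p = 1.45e-06, AURKB -0.48, edgeR adjusted p = 7.72e-09). In this complex the count was 2 of 4 with the library and 4 of 4 without it. The share of all genes called lower also rose, from 16.0% with the library to 29.5% without it.

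Of the 5 checkpoint genes 1 fell (20.0%), near the 16.0% of all tested genes. Without siE7 replicate 1, 2 of the 5 were lower and 1 higher, against 29.5% and 28.9% of all genes. TTK, the kinase MPS1 that starts checkpoint signalling, measured 6.16, 6.08 and 4.17 CPM with siNC and 2.16, 3.91 and 3.21 CPM with siE7 (log2 fold change -0.82 ± 0.26, edgeR adjusted p = 0.0286). It lost the call without siNC replicate 1 or 2 (edgeR adjusted p = 0.107 and 0.107) or siE7 replicate 3 (0.0539). MAD2L1, which holds CDC20 inactive, measured 16.4, 20.1 and 16.3 CPM with siNC and 7.02, 13.9 and 13.0 CPM with siE7, with no overlap of the groups, and narrowly missed the threshold (log2 fold change -0.64 ± 0.23, edgeR adjusted p = 0.0518). It was past it by DESeq2 (adjusted p = 0.00921) and without siE7 replicate 1 (-0.45, edgeR adjusted p = 9.90e-04). The kinase BUB1 (-0.24), BUB3 (-0.09) and BUB1B (0.14), which encodes BUBR1, did not pass. For BUB1B, siE7 replicate 1 lay below the siNC libraries and the other siE7 libraries above them, and without siE7 replicate 1 it passed as higher (0.30, edgeR adjusted p = 1.34e-04). BUB1B shares its strand with the overlapping gene PAK6.

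Among the genes of anaphase and of cohesion release, 3 of 6 fell. SGO2, one of the shugoshins that protect cohesin at the centromere (ENSG00000163535.18, chr2:200510008-200584096), measured 6.97, 7.25 and 6.02 CPM with siNC and 2.36, 2.94 and 3.70 CPM with siE7 (log2 fold change -1.17 ± 0.21, edgeR adjusted p = 0.00182). CDC20, the APC/C activator, measured 126, 120.2 and 129 CPM with siNC and 97.8, 68.8 and 65.9 CPM with siE7 (log2 fold change -0.69 ± 0.15, edgeR adjusted p = 0.00467), and it was -0.95, edgeR adjusted p = 2.11e-16 without siE7 replicate 1. In SGO2 and CDC20 all siE7 values lay below all siNC values, and SGO2 was a lower DEG. UBE2C, the ubiquitin-conjugating enzyme of the APC/C, fell by less (log2 fold change -0.39 ± 0.12, edgeR adjusted p = 0.0232) and lost the call without siE7 replicate 2 or 3 or siNC replicate 2 or 3, with an edgeR adjusted p of up to 0.128 over the alternatives. SGO1 (-0.37), PTTG1 (-0.23), which encodes securin, and ESPL1 (0.20), which encodes separase, did not pass, and of these PTTG1 passed without siE7 replicate 1 (-0.23, edgeR adjusted p = 0.00565).

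Of the 9 centromere and kinetochore genes 5 fell, CENPE, CENPF, KNL1, CENPA and SPC24. CENPE, the plus-end directed kinesin of the kinetochore (ENSG00000138778.13, chr4:103105349-103198445), measured 7.58, 6.33 and 5.83 CPM with siNC and 1.55, 2.83 and 2.94 CPM with siE7. The lowest siNC value lay well above the highest siE7 value in this gene of low level, and CENPE fell (log2 fold change -1.43 ± 0.25, edgeR adjusted p = 0.00151). CENPF, a large protein of the outer kinetochore, measured 58.4, 59.7 and 47.4 CPM with siNC and 28.6, 32.9 and 29.9 CPM with siE7 and fell as well (log2 fold change -0.86 ± 0.13, edgeR adjusted p = 5.85e-04). KNL1, the scaffold that recruits the BUB proteins, fell (log2 fold change -0.83 ± 0.21, edgeR adjusted p = 0.0114), as did CENPA (log2 fold change -0.59 ± 0.14, edgeR adjusted p = 0.00840). KNL1 lost the call without siNC replicate 1 and CENPA without siNC replicate 3, with edgeR adjusted p-values of up to 0.0583 and 0.0516.

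In the NDC80 complex, which binds the microtubule end, 1 of 4 subunits fell. It was SPC24 (log2 fold change -0.40 ± 0.13, edgeR adjusted p = 0.0354), and the call was lost without any library other than siE7 replicate 1, with an edgeR adjusted p of up to 0.140. NUF2 (-0.34), SPC25 (-0.01) and NDC80 (0.04) did not pass. NDC80 measured 17.2, 17.5 and 12.2 CPM with siNC and 8.50, 19.3 and 20.5 CPM with siE7, with siE7 replicate 1 below all other libraries and siE7 replicates 2 and 3 above them, and without siE7 replicate 1 it was 0.29, edgeR adjusted p = 0.0413. ZWINT, which links KNL1 to the outer kinetochore, had 140.0 and 129 CPM per kb of exon with siNC and siE7, and INCENP 144 and 127. These were the members of highest level per length in siE7 and siNC, respectively. ZWINT measured 328, 322 and 347 CPM with siNC and 324, 311 and 287 CPM with siE7 and did not pass (log2 fold change -0.11 ± 0.10, edgeR adjusted p = 0.426) unless siE7 replicate 1 was left out (-0.21, edgeR adjusted p = 0.00136). Its sign turned to 0.05 without composition scaling. Among the tested members KIF18A had the lowest level per length in siNC, 0.553 CPM per kb, and CENPE in siE7, 0.246.

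All 11 kinesins had fold changes below 0 and 8 of them fell, with a median of -0.60. KIF20B, a motor of the central spindle (ENSG00000138182.15, chr10:89701590-89774939), measured 11.0, 11.2 and 8.71 CPM with siNC and 2.97, 4.96 and 4.61 CPM with siE7 (log2 fold change -1.30 ± 0.22, edgeR adjusted p = 0.00108). KIF23, the motor of the centralspindlin complex, measured 59.1, 60.0 and 57.0 CPM with siNC and 20.4, 35.0 and 34.3 CPM with siE7 (log2 fold change -0.97 ± 0.18, edgeR adjusted p = 0.00207). In both genes the highest siE7 value lay far below the lowest siNC value. KIF11, the motor that pushes the spindle poles apart, fell with a fold change of -0.96 (edgeR adjusted p = 0.00802), and KIF14, a motor of cytokinesis, with -0.85 (0.0133). KIF15, which backs up KIF11, fell with -0.79 (0.00648), the microtubule depolymerase KIF2C with -0.45 (0.00705), the chromokinesin KIF22 with -0.45 (0.0208) and the minus-end motor KIFC1 with -0.43 (0.0164). KIF22 and KIFC1 lost the call without siE7 replicate 2 or 3 or siNC replicate 2 or 3, KIFC1 and KIF14 without siNC replicate 1, and their highest edgeR adjusted p-values over the alternatives were 0.0897, 0.0760 and 0.0569. KIF18A (-0.60), KIF18B (-0.30) and KIF20A (-0.30) did not pass. Without siE7 replicate 1 KIF18B (-0.49, edgeR adjusted p = 5.72e-06) and KIF20A (-0.35, edgeR adjusted p = 8.47e-05) did.

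Of the 7 other spindle proteins tested 4 fell. In all 7 every siE7 value lay below every siNC value, against 22.7% of all tested genes. CKAP2L (ENSG00000169607.13, chr2:112736349-112764664), a protein of spindle microtubules and poles, measured 37.1, 35.7 and 29.5 CPM with siNC and 9.18, 17.6 and 14.5 CPM with siE7 (log2 fold change -1.31 ± 0.21, edgeR adjusted p = 8.26e-04). ASPM (ENSG00000066279.19, chr1:197084121-197146694), the spindle pole protein whose loss causes microcephaly, measured 12.9, 10.8 and 11.7 CPM with siNC and 3.78, 5.14 and 5.40 CPM with siE7 (log2 fold change -1.30 ± 0.19, edgeR adjusted p = 3.98e-04). These 2 genes were lower DEGs, and siE7 replicate 1 was the lowest library for both. Without it their fold changes were -1.15 and -1.22. HMMR, a spindle assembly factor and hyaluronan receptor (log2 fold change -0.88 ± 0.23, edgeR adjusted p = 0.0122), and CKAP2 (log2 fold change -0.67 ± 0.20, edgeR adjusted p = 0.0221) fell too, but HMMR lost the call without siNC replicate 1, and CKAP2 without siNC replicate 1, 2 or 3. Their highest edgeR adjusted p-values over the alternatives were 0.0571 and 0.109. DLGAP5 (-0.57), GTSE1 (-0.29) and TPX2 (-0.12), the activator of AURKA, did not pass. All 3 passed without siE7 replicate 1, DLGAP5 at -0.38, edgeR adjusted p = 0.00298, GTSE1 at -0.39, edgeR adjusted p = 8.82e-04 and TPX2 at -0.14, edgeR adjusted p = 0.0237. NUSAP1, the eighth of these genes, had 0, 0 and 3 counts with siNC and 0, 1 and 0 with siE7 and was not tested. A row of the table on the same strand, ENSG00000285920.2 at chr15:41284007-41380996, covers NUSAP1 and held 1530, 1644 and 1874 counts with siNC and 1587, 2486 and 2753 with siE7 (log2 fold change 0.23, edgeR adjusted p = 0.338). How reads were shared between these rows was not tested, so no level can be given for NUSAP1.

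For cytokinesis, 3 of 4 genes fell. PRC1, the crosslinker of midzone microtubules, measured 315, 318 and 325 CPM with siNC and 195, 224 and 228 CPM with siE7 (log2 fold change -0.57 ± 0.11, edgeR adjusted p = 0.00222). ANLN, anillin of the contractile ring, measured 164, 165 and 151 CPM with siNC and 59.6, 104 and 107 CPM with siE7 (log2 fold change -0.82 ± 0.19, edgeR adjusted p = 0.00613). All siE7 values of both genes lay below the siNC values, and siE7 replicate 1 was the lowest. ECT2, the exchange factor that activates RhoA at the cell equator, fell with a fold change of -0.73 (edgeR adjusted p = 0.00869), and its partner RACGAP1 was at -0.25 and did not pass (0.130). Without composition scaling ECT2 was at -0.56 with an edgeR adjusted p of 0.0517, and without siE7 replicate 1 RACGAP1 passed (-0.26, edgeR adjusted p = 0.00365). PRC1 overlaps ENSG00000284946.1 on the same strand, which held 845 to 1065 counts in each library and did not pass (-0.24).

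The members differed in how firmly they were called. The 16 genes FOXM1, PLK1, BIRC5, CDC20, SGO2, CENPE, CENPF, KIF11, KIF15, KIF20B, KIF23, KIF2C, ASPM, CKAP2L, PRC1 and ANLN were called lower under all 15 alternatives, and the other 14 calls were lost under at least 1. Of the 26 members that did not pass, 21 had fold changes below 0. In 9 of the 26 all siE7 libraries lay below all siNC libraries, against 22.7% of all tested genes. These were CDK1, CCNB2, AURKA, MAD2L1, PTTG1, KIF20A, TPX2, DLGAP5 and GTSE1. Among the 56, 22 overlap another gene with counts, 6 of them on the same strand. Without composition scaling, which raises the median of all genes by 0.169, 19 members were lower and 1 higher with a median of -0.28, against a background of 11.1% lower and 27.5% higher. The 10 calls lost under that scaling were those of CCNB1, CDCA8, TTK, UBE2C, SPC24, KIF14, KIF22, CKAP2, HMMR and ECT2.

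GC content moved with the place of siE7 replicate 1. The log2 CPM of siE7 replicate 1 minus the mean log2 CPM of siE7 replicates 2 and 3 was set against the GC content of the transcript. Over the 56 members this difference rose with GC content (Spearman rho 0.852), as it did over the 14645 tested genes with a GC value (0.715). These points share the same libraries and genes are not independent replicates, so no p is given. In the 28 members with a GC content of up to 42.1%, among them CDK1, CENPE, KIF20B and NDC80, siE7 replicate 1 was the lowest siE7 library for all 28. In the 28 members above that it was the lowest for 11 and the highest for 16, among them FOXM1, PLK1, BIRC5 and CDC20. The fold changes of the members themselves rose with GC content with all libraries (rho 0.423). The rho was 0.113 without siE7 replicate 1 but 0.479 after GC trends had been removed, and -0.0726 over all tested genes. With exon length the fold changes of the members had a rho of -0.503.

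Without siE7 replicate 1, 44 members were lower and 4 higher with a median of -0.51, against a background that also rose, to 29.5% lower and 28.9% higher. All 30 calls were kept and 18 were gained, and the 4 higher members were NEK2, BUB1B, CCNA2 and NDC80. The GC-poor members then had 19 lower of 28 and a median of -0.57, where they had 16 and -0.73 with it, and the GC-rich members had 25 lower and -0.50, where they had 13 and -0.34. With its GC trend taken out of each library, 45 members were lower and NEK2 alone was higher, against a background of 25.7% and 23.3%.

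**Figure D3:**
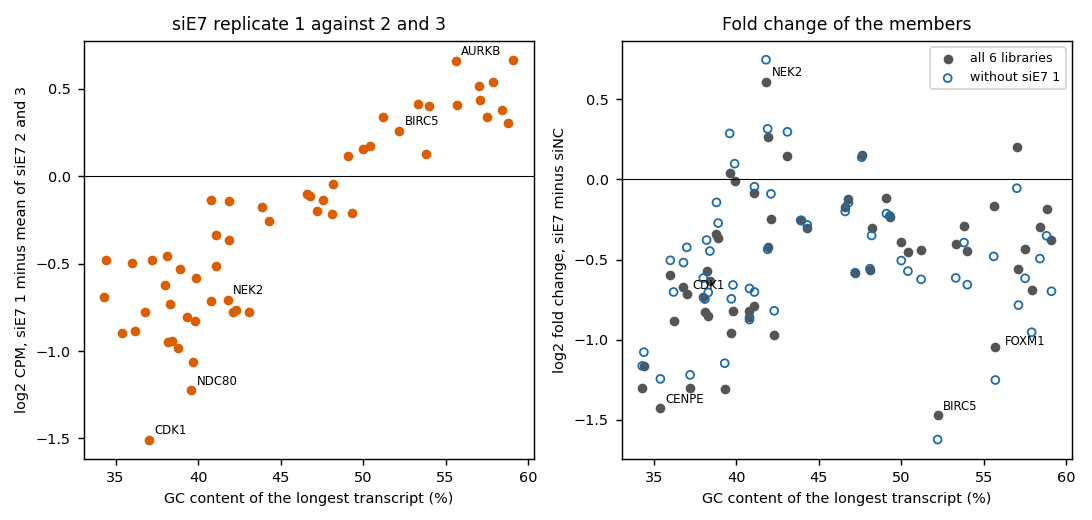
Each point is a tested member. Left, the log2 CPM of siE7 replicate 1 minus the mean log2 CPM of siE7 replicates 2 and 3. This difference is set against the GC content of the longest transcript (%) and rises from -1.51 for CDK1 to 0.67 for CDC25B. Right, the log2 fold change against GC content with all 6 libraries (filled) and without siE7 replicate 1 (open), where the GC-poor members move up and the GC-rich members down, and most stay below 0.

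The balance of members was compared as the log2 ratio of their CPM in each library, for 12 pairs. Most are pairs of paralogs, which need not act in the same complex, and the others are partners. The groups did not overlap for 5 pairs, each with the smallest p that the exact two-sided permutation test allows (0.1, Benjamini-Hochberg adjusted 0.24), so none passed. SGO1 to SGO2 was -0.37, -0.20 and 0.09 with siNC and 0.61, 0.90 and 0.43 with siE7, a difference of 0.81. KIF20A to KIF20B was 2.68, 2.92 and 3.30 with siNC and 4.43, 3.75 and 3.81 with siE7, a difference of 1.03. In both pairs every siE7 library had the higher ratio, and the paralog in the denominator, SGO2 or KIF20B, is the one that fell. CKAP2 to CKAP2L went from a mean of -0.65 ± 0.19 to -0.02 ± 0.15 (SD, n = 3), and NDC80 to NUF2 from 0.68 ± 0.14 to 1.04 ± 0.16. BUB1 to BUB1B was -1.14, -1.31 and -1.22 with siNC and -1.61, -1.60 and -1.62 with siE7. The siE7 replicate 1 library, well below the other siE7 libraries for each gene alone, was nearly equal to them in the ratio. In the other 7 pairs the groups overlapped, among them CCNB1 to CCNB2 (difference -0.11) and AURKA to AURKB (0.03).

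The CHR element and the CCAAT box were common in the promoters of the members. RefSeq promoters were found for 48 of the 57 members, and those of FOXM1, AURKA, BIRC5, BUB3, TTK, UBE2C, KNL1, TPX2 and RACGAP1 are not analysed here. A CHR element (TTTGAA or TTCGAA on either strand) stood in 37 of the 48 (77.1%), against 15.2% of 10529 tested genes and 19.5% of all 27305 genes with such windows. A CCAAT box stood in 40 (83.3%), against 43.1% and 39.7%, and both in 32 (66.7%), against 8.34% and 9.02%. A CHR element and a CCAAT box can share at most 1 base. These counts take a gene as holding a motif if any of its windows does, and the 48 members had 61 windows, with more than 1 for 9 of them. In the first window listed for each member, which the map of the promoters shows, 35 members held a CHR element and 38 a CCAAT box. In these first windows, counted in bases from the gene start, negative before it, the 76 CCAAT boxes began at a median of -69.5, 66 of them within 150 bases before the start. The 45 CHR elements began at a median of -22, 29 of them within those 150 bases.

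Members fell both with and without a match to the letters searched for these elements. Of the 36 tested members with a CHR element 18 fell, with a median of -0.56, and of the 11 without it 6 fell and 1 rose, with a median of -0.40. CENPE, which holds neither motif, had a fold change of -1.43, and KIF20B and CKAP2L, with 2 of each, had -1.30 and -1.31. CCNB2, with 4 CCAAT boxes and a CHR element, had -0.31. Of the 848 tested genes outside the list with both motifs, 18.3% fell and 17.2% rose, and of the 9643 without both 16.7% and 17.7%. These are descriptions of letters in a window, and no match says only that the letters are not there. No other sequence was searched, and whether these promoters bear on the fall was not tested.

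**Figure D4:**
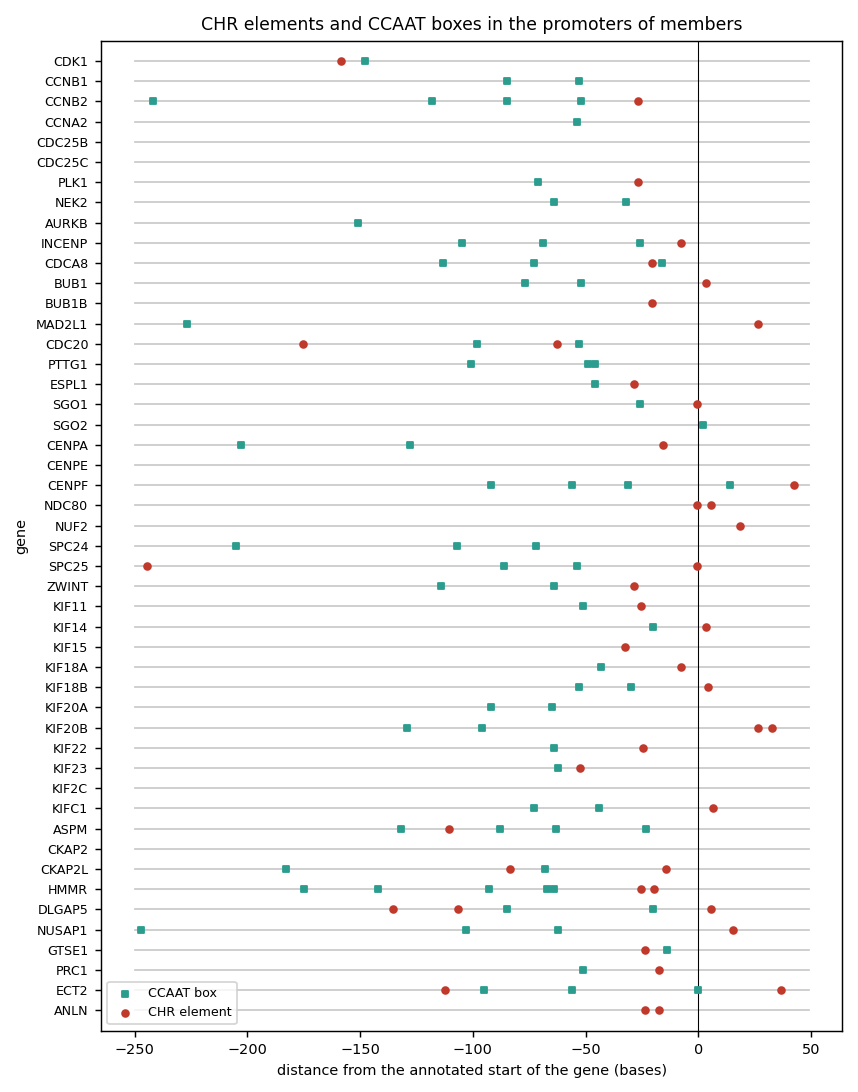
Place of CHR elements (red circles) and CCAAT boxes (green squares) in the first RefSeq window listed for each of 48 members, as the distance of the centre of the motif from the annotated gene start in bases, with 0 at the first base of the transcript. Grey lines are the windows. Of the green squares 66 of 76, and of the red circles 29 of 45, mark motifs that begin within 150 bases before the start. The other red circles lie farther upstream or at or after the start.

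Further genes of mitosis were examined in 10 lists. Of the 140 tested, 30 fell (21.4%) and 12 rose, with a median of -0.12, where 16.0% of all tested genes fell and 18.0% rose. Without composition scaling 18 fell and 23 rose with a median of 0.06, against 11.1% and 27.5% of all genes, and without siE7 replicate 1 55 fell and 34 rose, against 29.5% and 28.9%. Cohesin and its regulators had 5 lower of 14, led by NIPBL, the cohesin loader (log2 fold change -1.16 ± 0.15, edgeR adjusted p = 1.64e-04), and the cohesin subunit STAG2 (log2 fold change -1.25 ± 0.24, edgeR adjusted p = 0.00235), both lower DEGs. Of the 25 tubulins and microtubule regulators 11 fell and 2 rose, and TUBB6 (log2 fold change -0.99 ± 0.11, edgeR adjusted p = 5.29e-05) and TUBA1B (log2 fold change -0.90 ± 0.12, edgeR adjusted p = 2.71e-04) had the smallest p-values. In CENP-A loading, the chaperone HJURP fell (log2 fold change -0.50 ± 0.11, edgeR adjusted p = 0.00637), with an edgeR adjusted p of 0.0528 without composition scaling. In the MIS12, RZZ and SKA complexes 4 of 11 rose, ZW10 (log2 fold change 1.23 ± 0.21, edgeR adjusted p = 0.00129), DSN1 (0.67), SKA2 (0.60) and MIS12 (0.74), and 1 fell, SKA3 (-0.72, edgeR adjusted p = 0.0117). Of these 5 calls ZW10 alone held under every alternative.

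Of all tested genes, 16.0% fell and 18.0% rose. The share that fell was 11.8% in the APC/C, 14.3% in the constitutive centromere network and 8.33% among the regulators of CDK1. It was 9.09% in the MIS12, RZZ and SKA complexes and 0% in centriole duplication. These lists are short, so their shares differ from 16.0% by few genes and are not a result about the lists. In the APC/C, 2 of 17 fell, ANAPC15 (-0.45, edgeR adjusted p = 0.0148) and ANAPC16 (-0.47, 0.0207), and 1 rose. ANAPC15 lost the call without any library other than siE7 replicate 1, and ANAPC16 without any of the siNC libraries or without composition scaling, with adjusted p-values of up to 0.0680 and 0.138. Of the constitutive centromere network, 2 of 14 fell, CENPX (-0.58, edgeR adjusted p = 0.00467) and CENPC (-0.84, 0.0407). CENPC lost the call without siE7 replicate 2, siNC replicate 1 or 2, or composition scaling (adjusted p of up to 0.194). Of augmin and the gamma-tubulin complexes 3 of 16 fell, TUBGCP2 (-0.71) and TUBG1 (-0.55) among them. Of 9 centriole duplication genes none passed with edgeR and TMM factors on all libraries, and 1 was lower at an unadjusted p under 0.05, SASS6 (-0.88, edgeR adjusted p = 0.0576), while CEP152 was at -0.36 (0.177). SASS6 passed with RLE scaling (0.042), the replicate block (0.0406), no filter (0.031), the GC trend removed without or with the block (0.0127 and 0.0103), and without siE7 replicate 1 (0.0389), siE7 replicate 2 (0.0388) or siNC replicate 3 (0.0426), but not by DESeq2 (0.0549). With the GC trend removed 4 of the 9 were lower, against 25.7% of all genes. The regulators of CDK1 had 1 lower of 12, CKS1B (-0.37, edgeR adjusted p = 0.0374), and 1 higher, ENSA (0.47, 0.00527). The CKS1B call was lost under 8 of the 15 alternatives, among them the replicate block (edgeR adjusted p = 0.0723) and leaving out any siNC library, and the ENSA call without siNC replicate 1 (0.0511).

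Among the factors that control such promoters, 3 of 18 fell (16.7%) and 4 rose, near the 16.0% and 18.0% of all tested genes. MYBL2, which encodes B-MYB, fell (log2 fold change -0.80 ± 0.12, edgeR adjusted p = 5.85e-04), as did RBBP4, a subunit of MuvB (log2 fold change -0.87 ± 0.12, edgeR adjusted p = 3.04e-04), and E2F7 (-0.88), a repressor. The genes E2F1 (0.52), E2F2 (0.90), LIN52 (0.64) and RBL2 (0.68) rose, of which E2F1 and LIN52 lost the call without siNC replicate 1 or 2. Genes of DNA replication and the G1/S transition, which precede mitosis, fell in 19 of 40 (47.5%, against 16.0% of all genes), and 1 rose, PCNA (0.43), with a median of -0.33. They were led by GINS1 (log2 fold change -0.94 ± 0.12, edgeR adjusted p = 1.51e-04) and TYMS (log2 fold change -0.83 ± 0.11, edgeR adjusted p = 2.04e-04). Without composition scaling 12 of these 40 fell and 5 rose, against 11.1% and 27.5% of all genes. Whether the members differ from these lists was not tested.

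**Figure D5:**
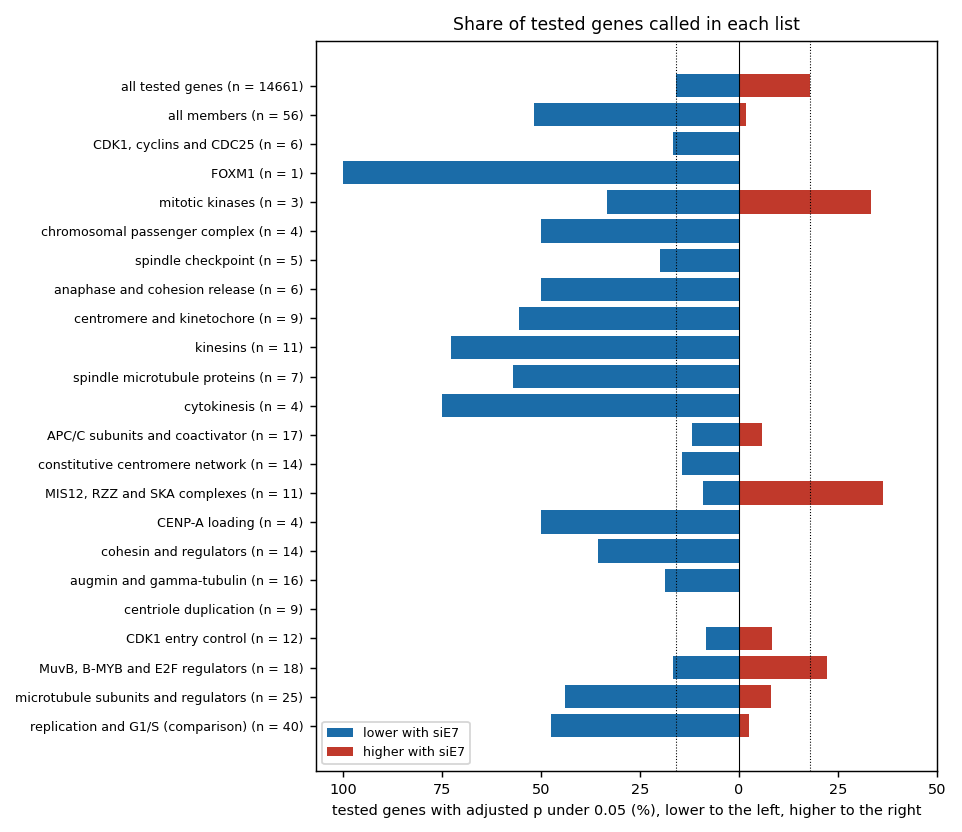
Share of tested genes called lower (blue, to the left) and higher (red, to the right) at an edgeR adjusted p under 0.05, in percent, for all tested genes, for the members together and by role, and for the other lists, with the number tested in brackets. Dotted lines continue the shares of all tested genes, 16.0% lower and 18.0% higher. Of the kinesins 72.7% and of the cytokinesis genes 75.0% were called lower. Without composition scaling, 18 of the 140 genes in the 10 further lists were lower and 23 higher, against 11.1% and 27.5% of all genes.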

How the data were processed

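The authors deposited raw counts per gene, whole numbers without normalization, for 6 libraries (directional, polyadenylated RNA, 150-bp paired-end Illumina reads, per the labels). HISAT2, DESeq2 and GRCh38 are named in the submitters' processing notes. The counting tool, the annotation release and the use of strand in counting are not given in the sources used here. Samples were grouped by their titles. The 57 members, their roles, the other lists and the alternatives were chosen with earlier results of these data known.

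Counts were filtered with filterByExpr, scaled by TMM factors and tested with edgeR 4.0.16 (R 4.3.3) by the quasi-likelihood F-test with Benjamini-Hochberg adjustment over 14661 genes. A call had an adjusted p under 0.05 and a DEG also a log2 fold change beyond 1. The biological coefficient of variation was 0.157. Alternatives were DESeq2 1.42.0, scaling by RLE, by upper quartiles or by library totals alone (no composition scaling), testing all genes or those with at least 10 counts in every library, a replicate block, a GC trend (lowess, span 0.3) removed per library without or with that block, and leaving out single libraries. Ratios were tested by exact permutation over samples. Gene positions, exon lengths and GC content come from GENCODE v44 on GRCh38, which matched 25283 of 25349 identifiers without their version. Promoters come from RefSeq on GRCh38.p14. Named with values in every library are the 2 members of smallest p in each role, every DEG, each member called higher and the member of highest level per length in each group. In the other lists the 2 genes of smallest p are named, except for 1 gene that is not reported here. CDK1, AURKA, AURKB and NDC80 and further genes of other lists were given in addition after their values had been seen. Tables were made with Python 3.11.15, numpy 2.4.6, pandas 2.3.3 and scipy 1.17.1, and figures with matplotlib 3.10.9.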

Additional observations from a re-analysis of the deposited data

How the results depend on the processing

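Of 645 values of 43 named genes under 15 alternatives, 570 kept their direction and their side of the threshold, 47 were no longer past it, 27 newly passed it and 1 reversed, ZWINT, which was 0.053 without composition scaling. The members called lower numbered 45 with the GC trend removed and 19 without composition scaling, and 20 to 44 with 1 library left out, lowest without siNC replicate 1 and highest without siE7 replicate 1. Members called higher numbered 0 to 4 with 1 library left out (4 without siE7 replicate 1, 0 without any other), lower DEGs 7 to 12 (12 without siE7 replicate 2), and the median was -0.51 to -0.44, and -0.28 without composition scaling. The causes were not tested, but leaving out a library also changes the number of samples.

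The replicate numbers showed no sign of pairing the samples (correlations of same-numbered libraries -0.05 to -0.02), and no pair had a correlation over 0.1. With 3 libraries per group and siE7 replicate 1 far from the others, these correlations cannot exclude pairing. With the number as a replicate block 33 members were lower and 1 higher, with no call lost. With the GC trend removed and the block 43 were lower. The other mitotic lists had 53 lower genes with the GC trend removed and the block, 55 with the GC trend removed, 18 without composition scaling and 18 to 55 with 1 library left out (18 without siNC replicate 1, 55 without siE7 replicate 1). They had 23 higher genes without composition scaling and 5 to 34 with 1 library left out (34 without siE7 replicate 1, and 6, 5 and 7 without siNC replicates 1, 2 and 3). The replication genes had 12 lower without composition scaling and 11 to 26 with 1 library left out (12, 11 and 12 without siNC replicates 1, 2 and 3, 12 without siE7 replicate 2). They had 3 higher with the GC trend removed and the block, 4 with the GC trend removed, 5 without composition scaling, 3 without a filter, 2 with the replicate block and 0 to 8 with 1 library left out (8 without siE7 replicate 1). Of all tested genes, 11.1% were lower and 27.5% higher without composition scaling, and 25.7% and 23.3% with the GC trend removed. Without siE7 replicate 1 the shares were 29.5% and 28.9%, and without any other library 10.3% to 12.9% and 10.6% to 13.9%. The difference in log2 ratio of 3 pairs changed sign with 1 library left out, AURKA to AURKB (-0.16 to 0.28), KIF18A to KIF18B (-0.55 to 0.0063) and CDC20 to MAD2L1 (-0.51 to 0.23).

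Members at a few CPM, such as KIF18A, CENPE, SGO2 and TTK, rest on fewer counts than the rest, and overlapping genes and the unknown use of strand limit what a single row can show.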
